A study of Oreochromis niloticus with 12 samples.

Results

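The glial genes gfap, fabp7a and clu were described in the brains of male Nile tilapia (Oreochromis niloticus, Lake Manzala strain), a cichlid whose males form dominance hierarchies. They are 3 of 27115 genes in the brain table. gfap and clu are rows under those names, and fabp7a is the row LOC100690908, to which the RefSeq gene table gives that symbol. The members were chosen because their brain levels differed between the statuses, so the status difference of each is given as a description. Tests run over all genes cover the members too, and nothing is read from their outcome for these genes.

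RNA of brains and pituitaries was sequenced in 12 libraries, 3 for each tissue and status. The groups used here are 3 brains of dominant males and 3 brains of subordinate males, all mature. Each tank held 2 dye-marked males and 4 to 6 females, and tissues of males with a stable rank were taken after 14 days. No genetic change or drug is named for any group, no age is given for the fish, and the labels do not say whether samples with different numbers came from separate tanks. None of the 3 genes was found in the pituitary table, so their pituitary levels were not analysed here. That table held 714 genes and may have been selected by outcome.

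Radial glia are the main astrocyte-like cells of the adult fish brain. They line the ventricles, send processes to the brain surface, divide to make neurons and hold brain aromatase. gfap encodes the glial fibrillary acidic protein, the intermediate filament of these cells and of mammalian astrocytes. fabp7a encodes a brain-type fatty acid binding protein, a small carrier of long-chain fatty acids that marks radial glia. clu encodes clusterin, a secreted chaperone and lipoprotein component made by astrocytes, and also by neurons and other cell types, in mammals.

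Levels are normalised reads, the authors' gene counts divided by a size factor for each library. They compare libraries for the same gene and were not corrected for gene length, so levels are not compared between genes. Brain libraries held 23733115 to 26867631 recovered reads. Other radial glia genes were present in the brain libraries, with s100b between 58710 and 84600 normalised reads, glula, a glutamine synthetase, between 12921 and 16962, and cyp19a1b, brain aromatase, between 1770 and 4253. Neuronal and myelin genes were abundant too, and the libraries are of bulk tissue. More cells of a type and more RNA per cell therefore cannot be told apart.

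gfap stood at 17273, 23826 and 19438 normalised reads in dominant brains 1, 2 and 3. In subordinate brains 1, 2 and 3 it stood at 13427, 15412 and 14351. All dominant brains lay above all subordinate brains, with dominant brain 2 highest and subordinate brain 1 lowest. The means were 20179 ± 3339 and 14396 ± 993 (SD, n = 3), a ratio of 1.40. The gap between the lowest dominant and the highest subordinate brain was 1861 reads, which is less than the SD of the dominant group. On the log2(value + 1) scale the difference, dominant minus subordinate, was 0.48 ± 0.13 (SE).

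fabp7a stood at 2829, 3558 and 2388 normalised reads in dominant brains 1, 2 and 3. In subordinate brains 1, 2 and 3 it stood at 2244, 1916 and 1749. The groups again did not overlap, but dominant brain 3 and subordinate brain 1 were close, 144 reads apart against SDs of 591 and 252. The 95% exact Poisson intervals of those libraries, 2291 to 2488 and 2156 to 2334, overlapped. Such intervals cover counting error only. The means were 2925 ± 591 and 1970 ± 252 (SD, n = 3), a ratio of 1.49, and the log2 difference was 0.56 ± 0.16 (SE).

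clu stood at 23745, 23944 and 25691 normalised reads in dominant brains 1, 2 and 3. In subordinate brains 1, 2 and 3 it stood at 20562, 20593 and 20218. The subordinate brains were almost level, and dominant brain 3 was the highest. The means were 24460 ± 1071 and 20458 ± 208 (SD, n = 3), a ratio of 1.20, with a log2 difference of 0.26 ± 0.07 (SE). The gap between the groups was 3152 reads, larger than either SD.

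**Figure D1:**
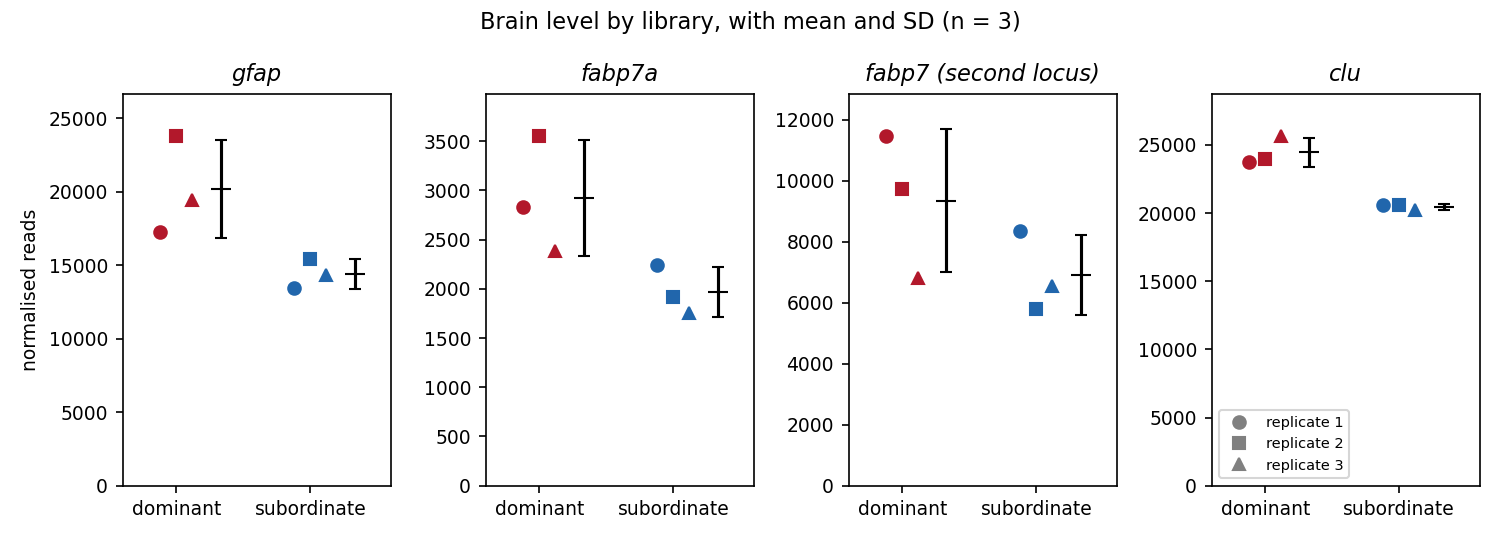
Normalised reads (vertical axis, from 0) of gfap, fabp7a, the second locus fabp7 and clu in each brain library, by status (horizontal axis). Symbols give the replicate number, and the bar gives the mean with its SD (n = 3). The groups do not overlap for gfap, fabp7a and clu, while for fabp7 dominant brain 3 at 6820 lies below subordinate brain 1 at 8338.

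clu had the smallest difference of the 3 genes and also the smallest spread. Its coefficient of variation was 4.38% in dominant and 1.02% in subordinate brains, where counting alone gives 0.627% to 0.710% per library. For gfap the coefficients were 16.5% and 6.90%, against 0.628% to 0.837% from counting. For fabp7a they were 20.2% and 12.8%, against 1.63% to 2.40%. In all 3 genes the dominant brains varied more than the subordinate ones, a difference that was not tested with 3 libraries per status. For gfap and fabp7a the spread between replicates was well above counting error.

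Of the 3 genes, 3 had all dominant values above all subordinate values. Over the 21743 tested genes, those averaging 10 or more normalised reads, 5.46% did so. By limma with Benjamini-Hochberg adjustment over those genes, 6 genes passed at an adjusted p under 0.05 (0.0276%), all higher in dominant brains, and 0 of the 3 glial genes were among them. edgeR's quasi-likelihood test on the recovered reads also called 6 genes and 0 of the 3, while DESeq2 called 88 genes (0.413%), clu among them. Since this contrast chose the genes, nothing is read from these counts. In the authors' deposited table the log2 fold changes were 0.49 for gfap, 0.57 for fabp7a and 0.26 for clu.

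Left out one at a time, dominant brain 2 mattered most to gfap and fabp7a. Without it the log2 difference was 0.35 for gfap and 0.41 for fabp7a. Over the 6 omissions gfap ran from 0.35 to 0.58, fabp7a from 0.41 to 0.70 and clu from 0.22 to 0.28. The direction was the same in each of these fits, as it had to be for genes whose groups did not overlap.

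The 3 genes did not share an order of libraries within a status, a measure that the choice of genes did not use. gfap and fabp7a were both highest in dominant brain 2, at 0.25 and 0.30 log2 units above the dominant mean, while clu was 0.03 below it there. In dominant brain 3 clu was 0.07 above the mean and fabp7a 0.27 below it. In subordinate brain 1 fabp7a was 0.20 above the mean and gfap 0.10 below it.

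Correlations of these deviations were computed for 3 pairs over 6 libraries, with exact two-sided permutation of libraries within each status. For gfap and fabp7a Pearson's r was 0.41 (exact p = 0.667, adjusted p = 0.944) and Spearman's rho was 0.14 (exact p = 0.861, adjusted p = 0.861). For gfap and clu r was -0.04 (exact p = 0.944, adjusted p = 0.944) and rho was 0.14 (exact p = 0.861, adjusted p = 0.861). For fabp7a and clu r was -0.54 (exact p = 0.639, adjusted p = 0.944) and rho was -0.60 (exact p = 0.444, adjusted p = 0.861). No relation was detectable, and the smallest p this design allows is 0.0278. Without the 2 libraries farthest from the median on the first gene, r was -0.27, -0.20 and 0.45 for the 3 pairs in that order, so the signs of the first and last pair rest on those libraries.

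**Figure D2:**
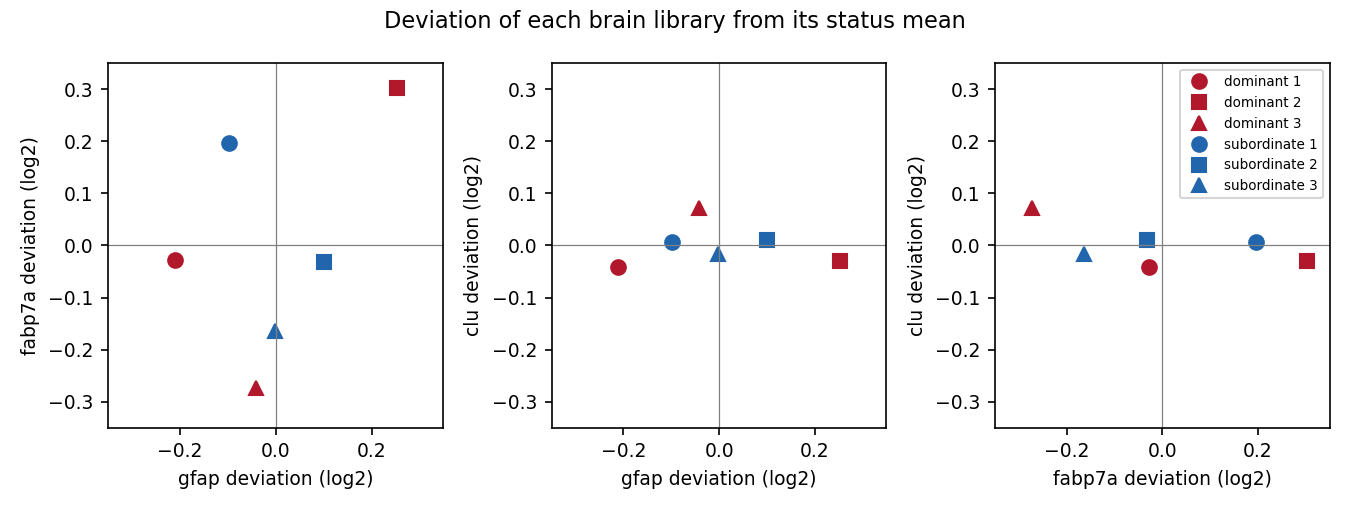
Deviation of each brain library from the mean of its status in log2(normalised reads + 1), for each pair of gfap, fabp7a and clu. Colours give the status and symbols the replicate number. Dominant brain 2 is high for gfap and fabp7a but not for clu, and clu varies over a much narrower range.

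Relatives of the 3 genes were sought by name. The table holds a separate locus named fabp7, another brain-type fatty acid binding protein. It stood at 11481, 9732 and 6820 normalised reads in dominant brains and at 8338, 5791 and 6562 in subordinate brains 1, 2 and 3. The groups overlapped, with means of 9344 ± 2354 and 6897 ± 1306 (SD, n = 3), and its log2 difference of 0.42 ± 0.21 (SE) did not pass (limma adjusted p = 0.934). fabp7 was lowest among dominant brains in brain 3, as fabp7a was, but highest in brain 1 and not in brain 2. The sources used here do not say how reads matching both loci were assigned.

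Of clusterin's relative clul1, clusterin-like 1, which is known in mammals from cone photoreceptors, there were 2 loci at low levels. LOC100711350 stood at 78.0 ± 22.6 and 86.0 ± 31.9 normalised reads in dominant and subordinate brains (SD, n = 3). The locus named clul1 in the table stood at 20.8 ± 3.50 and 19.8 ± 3.79. Both overlapped between groups (limma adjusted p = 0.969 and 0.981), and neither had the pattern of clu. No second gfap locus was found by name.

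Other genes were then described in 6 lists, without gfap, fabp7a and clu. The lists were chosen with earlier results of these data known, so their counts and shares are descriptions and not independent tests. The lists hold 121 different tested genes, and 0 of them passed limma's test over all genes in either direction, against 0.0276% of all genes (0% for lower in dominant brains). With subordinate brain 1 left out 1 of them passed, the neurofilament gene nefl (limma adjusted p = 0.0433). At an unadjusted limma p under 0.05 there were 14 of 121 genes, against 5.17% of all genes. The intermediate filament list held 6 of them among its 18 genes. Its gene of smallest p was synm, which encodes synemin, and neurofilament genes came next. Each other list held 0 to 3, with 3 of 25 radial glia and astrocyte genes. edgeR called 0 of the 121 and DESeq2 called 2, nefm and nefh, against 0.413% of all genes by DESeq2. Over all tested genes the median log2 difference was -0.0043, with 10615 higher and 11128 lower in dominant brains. The list medians given below are descriptions and were not tested, and so are summed normalised reads. Sums of the radial glia and astrocyte list were 146103 to 161830 in dominant and 125396 to 145753 in subordinate brains. Those of the intermediate filament list were 49860 to 62447 and 29108 to 45916. Neither overlapped, but single abundant genes weighed heavily in both. s100b averaged 79620 in dominant and 65074 in subordinate brains, a large part of the radial glia sum. nefm, a neuronal gene, averaged 17861 and 9140, a large part of the intermediate filament sum. These sums therefore do not show that the other genes of either list differed. Sums of the other glial lists overlapped between the statuses.

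Among other radial glia and astrocyte genes 17 of 25 were higher in dominant brains, with a median log2 difference of 0.059. For this list 59 symbols were sought and these 25 loci found. The markers slc1a2b, slc1a3b and aqp4 were not found by name, and loci without a symbol could not be examined. The 25 differences ran from -0.16 to 0.46. bcan, the brain-specific proteoglycan brevican, stood at 3463 ± 288 and 2697 ± 474 (log2 difference 0.37), and s100b, a calcium-binding glial protein, at 79620 ± 4389 and 65074 ± 7460 (0.30). s100b was the 1 gene of the 25 whose dominant values all lay above the subordinate ones, against 5.46% of all genes. kcnj10a, the glial potassium channel Kir4.1, stood at 2420 ± 164 and 2075 ± 217 (0.22). cyp19a1b stood at 3530 ± 628 and 2656 ± 945 (0.46). For bcan, kcnj10a and cyp19a1b the groups overlapped (limma adjusted p = 0.934 for all 4 genes).

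Some other abundant genes of the list stood level between the statuses or slightly lower in dominant brains. glula was at 13598 ± 205 and 14704 ± 2061 normalised reads (log2 difference -0.10), and its second copy glulb at 14234 ± 4669 and 14006 ± 3191 (-0.01). ndrg2, an astrocyte marker in mammals, was at 8293 ± 485 and 8533 ± 115 (-0.04). Their limma adjusted p ran from 0.935 to 0.997. Other abundant genes of the list, mlc1 and fgfbp3, were higher in dominant brains, with overlap. Their log2 differences were 0.18 and 0.20 (limma adjusted p = 0.934 for both).

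Among genes of reactive glia, the state in which gfap and clu rise in injured mammalian brain, 13 of 20 others were higher in dominant brains (median 0.098). anxa3b, an annexin, stood at 138 ± 13.5 and 108 ± 3.28 normalised reads (log2 difference 0.34), and s100a10b, an annexin partner, at 338 ± 70.3 and 268 ± 29.6 (0.32). For both, the groups did not overlap. They were the 2 of 20 genes with all dominant values above all subordinate values, against 5.46% of all genes. stat3, the transcription factor that drives gfap in mammalian astrocytes, stood at 1549 ± 122 and 1333 ± 95.2 (0.22), with overlap. mmp9, a matrix protease, went the other way, at 125 ± 13.8 and 227 ± 97.2 (-0.79), with every dominant brain below every subordinate brain, as in 5.33% of all genes. The summed level of the 20 genes was 19619 to 20074 normalised reads in dominant and 18563 to 20159 in subordinate brains, so as a sum the groups overlapped. None of these genes passed (limma adjusted p = 0.934 for the 4 named).

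In the intermediate filament list 14 of 18 genes other than gfap were higher in dominant brains (median 0.25). Its gene of smallest p was synm, and neurofilament genes, which are neuronal, came next. nefm, the medium neurofilament subunit, stood at 21690, 15688 and 16204 normalised reads in dominant and at 13066, 8267 and 6085 in subordinate brains 1, 2 and 3 (log2 difference 1.02). nefh, the heavy subunit, stood at 6056 ± 1415 and 3224 ± 1030 (0.93), and nefl, the light subunit, at 3903 ± 597 and 1278 ± 1331 (2.14). synm, which encodes synemin, a partner of other filaments, stood at 671 ± 118 and 447 ± 56.2 (0.58). These 4 genes had groups that did not overlap, and none passed (limma adjusted p = 0.855 to 0.934). All dominant values lay above all subordinate values in 5 of the 18 genes, against 5.46% of all genes. nefla, another neurofilament gene, was also among the 5 (log2 difference 1.24). Neurofilaments were highest in dominant brain 1 and, among subordinate brains, in brain 1, an order that gfap did not have.

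In the fatty acid binding and related retinoid carrier list 7 of 9 genes other than fabp7a were higher in dominant brains (median 0.18). All dominant values lay above all subordinate values in 0 of 9, against 5.46% of all genes, a share at which a list of this size can hold none. fabp3, the heart-type carrier, stood at 5087 ± 261 and 5005 ± 138 (log2 difference 0.02), and crabp1a, a retinoic acid carrier, at 8783 ± 2284 and 7597 ± 1006 (0.18). fabp4b, whose mammalian relative is the adipocyte carrier, was lower in dominant brains, at 71.7 ± 11.3 and 109 ± 42.5 (-0.54). None passed (limma adjusted p = 0.934 to 0.971 for these 3 genes).

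In the list of apolipoproteins, their receptors and amyloid precursor relatives, 11 of 22 genes other than clu were higher in dominant brains (median -0.0020). sorl1, a sorting receptor of the low-density lipoprotein receptor family, stood at 2516 ± 175 and 2183 ± 97.2 normalised reads (log2 difference 0.20). ldlr, the low-density lipoprotein receptor, stood at 49.8 ± 10.8 and 31.7 ± 1.54 (0.61), and for both genes the groups did not overlap. They were the 2 of 22 genes with all dominant values above all subordinate values, against 5.46% of all genes. apoeb, an apolipoprotein E of fish microglia and other cells, stood at 16770 ± 3605 and 14959 ± 3347 (0.16), with overlap. The other 11 genes were lower in dominant brains, among them the most abundant of the list, aplp1, an amyloid precursor relative. aplp1 stood at 27665 ± 1307 and 30295 ± 2443 (-0.13), with overlap. None passed (limma adjusted p = 0.934 to 0.941 for the genes named).

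Regulators of glial fate were split evenly, with 18 of 35 higher in dominant brains and a median of 0.014. cntfr, a receptor for ciliary neurotrophic factor, stood at 1633 ± 46.7 and 1487 ± 93.5 (log2 difference 0.14), and hes1, a Notch target that keeps progenitors undifferentiated, at 594 ± 41.4 and 666 ± 56.1 (-0.16). The groups did not overlap for either gene (limma adjusted p = 0.934 for both). Of the 35 genes, 1 had all dominant values above all subordinate values, against 5.46% of all genes. In 2 all lay below, against 5.33%. nfixb, a nuclear factor I gene whose family switches on gfap in mammals, stood at 11117 ± 618 and 12308 ± 1674 (-0.14, limma adjusted p = 0.934).

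**Figure D3:**
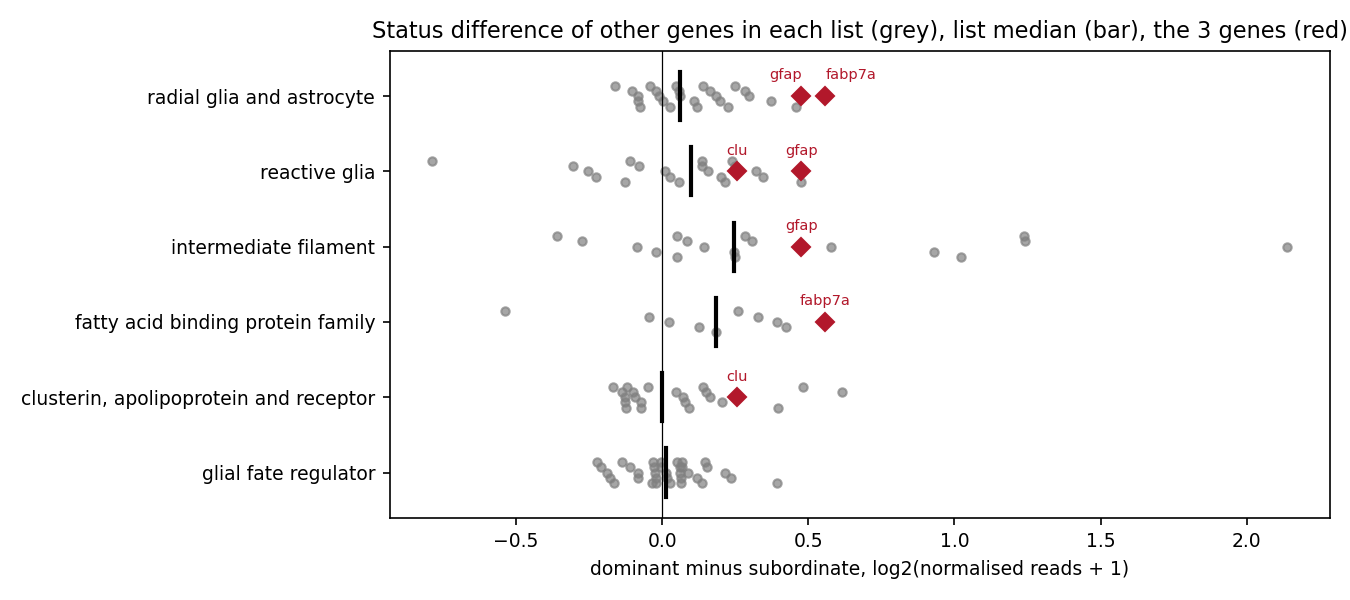
Log2 difference, dominant minus subordinate, of log2(normalised reads + 1) (horizontal axis) for the other tested genes of 6 lists (grey points), with the list median (bar) and gfap, fabp7a and clu (red diamonds). The medians run from -0.0020 to 0.25, and neurofilament genes form the right end of the intermediate filament list.

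Marker genes of brain regions and of other cell types were summed in the same libraries. These lists were chosen with earlier results of these data known. Their counts and shares are therefore descriptions and not independent tests. Of 14 posterior hox loci (groups 5 to 10), which pattern hindbrain and spinal cord, 10 passed the filter on low values, and 10 of 10 were higher in dominant brains, with 0 passing limma, 0 passing edgeR and 3 passing DESeq2. DESeq2 called 0.413% of all genes. At an unadjusted limma p under 0.05 there were 7, against 5.17% of all genes, and in 7 all dominant values lay above all subordinate values, against 5.46%. The filter took the mean over all brain libraries, so a locus near 0 in subordinate brains could pass only through the dominant ones. hoxc8, for example, averaged 97.7 normalised reads in dominant and 3.64 in subordinate brains. The hox counts and shares are therefore partly fixed by the filter. Their summed level, low loci included, was 877 to 1449 normalised reads in dominant brains. It was 761, 70.6 and 157 in subordinate brains 1, 2 and 3, and hoxc8 and hoxb9 were at 0 in subordinate brains 2 and 3. Of 10 forebrain factors 10 were lower in dominant brains, with sums of 4590 to 6012 and 7143 to 8780. Of these, limma and edgeR called 0 and DESeq2 called 2, eomesa and bhlhe22, against 0.413% of all genes. An unadjusted limma p under 0.05 was found for 3, against 5.17% of all genes. In 3 all dominant values lay below all subordinate values, against 5.33%. Oligodendrocyte and myelin genes were higher in 17 of 19, with a median log2 difference of 0.28. Their sums overlapped, at 179806 to 198413 in dominant and 119937 to 212504 in subordinate brains. Of the 19, limma, edgeR and DESeq2 called 0, and 5 had an unadjusted limma p under 0.05, against 5.17% of all genes. In 5 all dominant values lay above all subordinate values, against 5.46%.

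The subordinate brain with hox levels nearest the dominant ones, brain 1, had the lowest gfap of all 6 libraries, 13427 normalised reads. Its clu value of 20562 lay between those of the other subordinate brains, 20218 and 20593. Its fabp7a value of 2244 was the highest subordinate one. Without subordinate brain 1 the log2 differences were 0.43 for gfap, 0.66 for fabp7a and 0.26 for clu. Leaving it out removed the subordinate brain nearest the dominant ones in hox level, so the remaining groups were farther apart in these markers. The part of region markers in the 3 differences was not tested.

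Pituitary hormone transcripts were lower in dominant brains in 8 of 8 genes and highest in subordinate brain 3, with a sum of 29532 against 10362 to 15002 in the other 5 libraries. Without that brain the differences were 0.48 for gfap, 0.48 for fabp7a and 0.25 for clu. Sums of neuron and synapse genes were 268471 to 280911 in dominant and 282443 to 285251 in subordinate brains. These sums did not overlap, the dominant ones being lower, and 10 of 23 genes were higher in dominant brains. Of microglia and macrophage genes 13 of 15 were higher in dominant brains (median log2 difference 0.16), with overlapping sums of 33300 to 41961 and 26974 to 38313. Of genes of meninges, choroid plexus and ependyma 20 of 24 were higher (median 0.19), with overlapping sums of 5951 to 7508 and 5487 to 6591. Both medians were above the 0.059 of the radial glia list. Endothelium and mural cell genes were higher in 11 of 21 (sums 17940 to 19861 and 18601 to 20748) and erythrocyte genes in 4 of 7 (5708 to 7029 and 4852 to 8478). In each of these 6 lists limma, edgeR and DESeq2 called 0 genes, and at an unadjusted limma p under 0.05 there were 0 to 3, against 5.17% of all genes. All dominant values lay above all subordinate values in at most 3 genes of a list (3 of 24 in the meninges list), against 5.46% of all genes. They all lay below in at most 3 (3 of 8 pituitary hormone genes), against 5.33%. The part of these cell types was not tested.

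**Figure D4:**
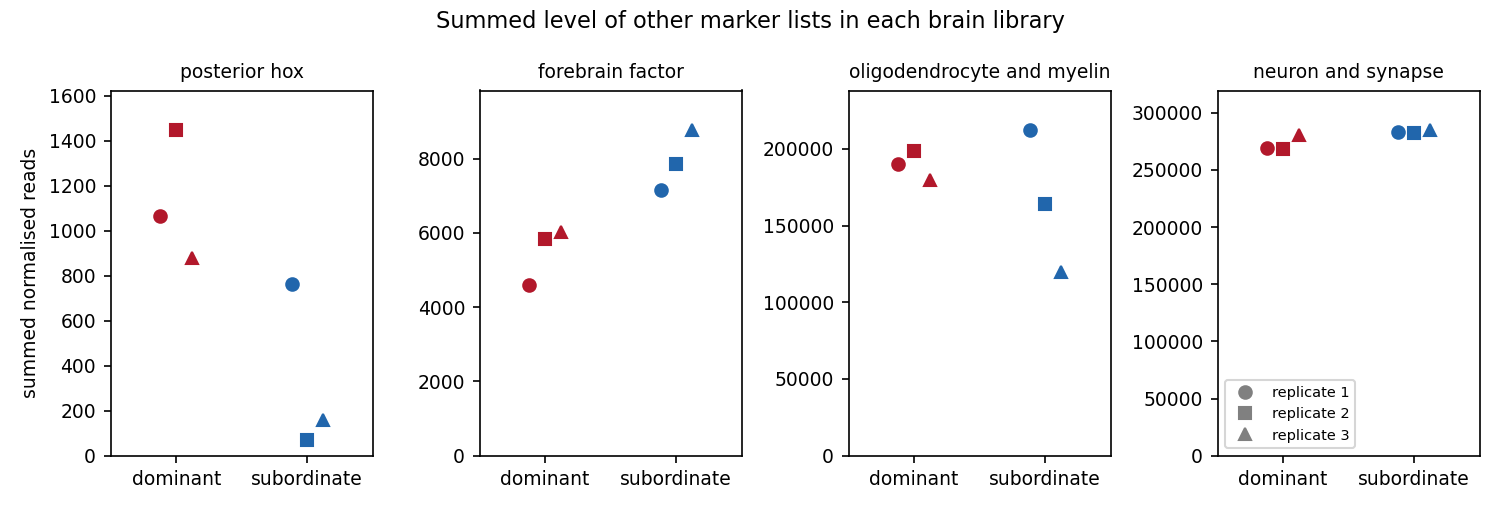
Summed normalised reads (vertical axis, from 0) of posterior hox, forebrain factor, oligodendrocyte and myelin, and neuron and synapse genes in each brain library, by status (horizontal axis). Symbols give the replicate number. Subordinate brain 1 has a posterior hox sum of 761, near dominant brain 3 at 877, while subordinate brains 2 and 3 have 70.6 and 157.

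Among 12388 named genes that averaged 100 or more normalised reads, those whose levels over the 6 brain libraries were most like each of the 3 genes were found by Pearson's r on the log2 scale. With so many genes and 6 libraries, values of r near 1 arise readily, and genes found this way share the status difference by construction. The r values are therefore a description.

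For gfap the most alike were fadsd6, a fatty acid desaturase (r = 0.99), itm2b, a membrane protein that binds amyloid precursor protein in mammals (0.98), srpx2, a secreted sushi-repeat protein (0.98), mif, a cytokine (0.98), and clic4, a chloride intracellular channel protein (0.97). fadsd6 stood at 2681, 3147 and 2807 normalised reads in dominant and at 2363, 2580 and 2369 in subordinate brains, with dominant brain 2 highest as for gfap.

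For fabp7a they were acbd5, a peroxisomal acyl-CoA binding protein (r = 0.996), lpar1, a lysophosphatidic acid receptor (0.98), lmx1bb, a LIM homeobox factor of the midbrain and hindbrain (0.98), cldn29, a claudin (0.98), and nmi, an interferon-induced interactor of Myc proteins (0.98). acbd5 ran from 833 to 925 normalised reads over the 6 brains, so its range was much narrower than that of fabp7a. cldn29 stood at 332, 566 and 250 in dominant and at 133, 93.5 and 79.5 in subordinate brains 1, 2 and 3.

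For clu they were npc2, the lysosomal cholesterol carrier (r = 0.998), psmg2, a proteasome assembly chaperone (0.996), birc2, a ubiquitin ligase that inhibits cell death (0.98), cant1b, a nucleotidase (0.98), and pmp22, a myelin and epithelial membrane protein (0.98). npc2 stood at 522, 515 and 589 in dominant and at 385, 390 and 370 in subordinate brains, with dominant brain 3 highest as for clu. None of the 3 glial genes was among the most alike of another. fabp7a ranked 231 for gfap (r = 0.82), clu ranked 251 for gfap (0.81), and clu ranked 752 for fabp7a (0.70).

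**Figure D5:**
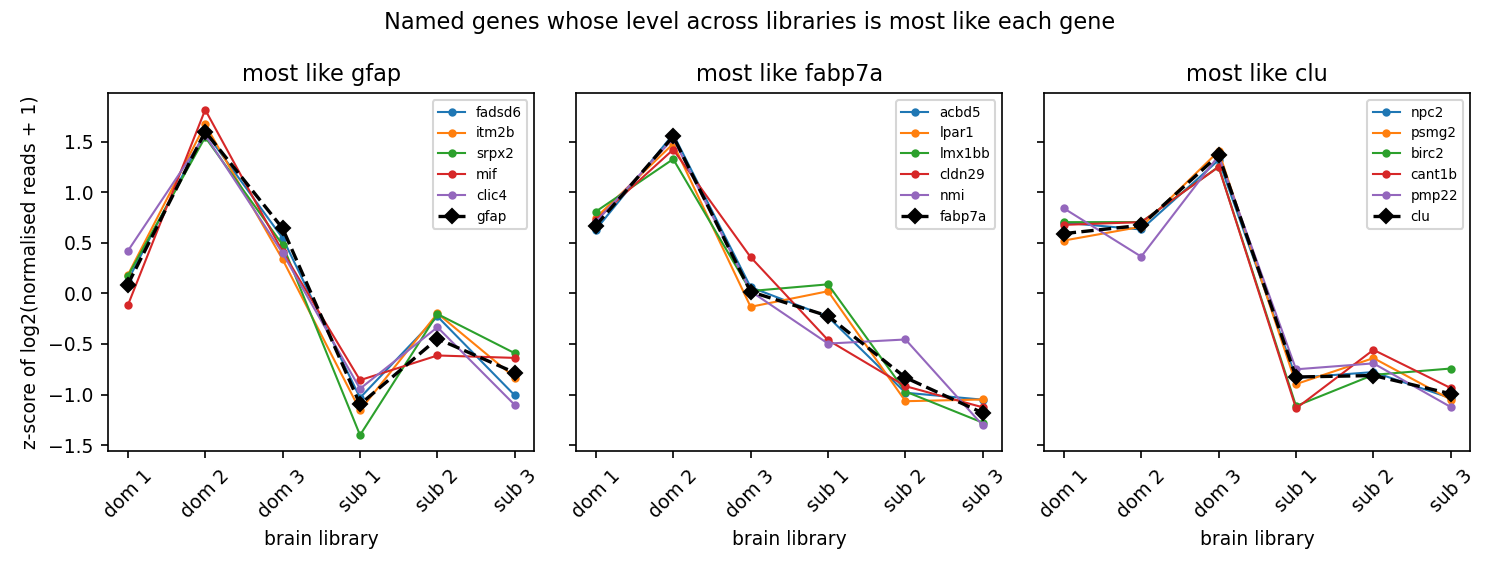
Level of gfap, fabp7a and clu (black dashed) and of the 5 named genes most like each (coloured) over the 6 brain libraries, as z-scores of log2(normalised reads + 1). The peak lies in dominant brain 2 for the gfap and fabp7a sets and in dominant brain 3 for the clu set.

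The 3 genes lie on 3 different linkage groups of the reference. Their nearest tested protein-coding neighbours, 3 on each side, were described in the same way. Around gfap the log2 differences ran from -0.53 to 0.04, with map3k3, a kinase, at 0.04 on one side and kcnh6a, a potassium channel, at -0.36 on the other. Around fabp7a they ran from -0.50 to 0.04, and around clu from -0.30 to 0.10. All dominant values lay above all subordinate values in 0 of these 18 neighbours, against 5.46% of all genes. All lay below in 4 of 18, against 5.33% of all genes. These were ddx42, an RNA helicase, and kcnh6a near gfap, and sumo3a, a ubiquitin-like modifier, and si:ch211-266g18.10 near fabp7a.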

How the data were processed

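Total RNA of brains and pituitaries was isolated with a miRNeasy kit and turned into TruSeq RNA v2 libraries, per the labels' protocols. The submitters' processing notes name STAR, HTSeq, Trim Galore, FastQC 0.11.4 and both DESeq and DESeq2. No build, annotation or strand setting is stated there. The brain signal values are deposited as normalised read counts. That each library's counts were divided by one size factor, by the authors, is inferred from the values: 100% are whole multiples of one step per library (tolerance 0.01 reads). The size factors came out at 0.956 to 1.10. The fold change table holds log2 ratios of dominant over subordinate males with unadjusted p-values, computed by the authors, per the file headers. Columns not used numbered 0.

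Groups follow the labels' status and tissue. After 251 blank lines were left out, RefSeq (O_niloticus_UMD_NMBU) gave symbols to 5834 of 17130 LOC identifiers. It was used for names and gene order, and no positions are printed. limma 3.58.1 in R 4.3.3 (eBayes, trend=TRUE) was run on log2(value + 1), which understates changes of low genes, with Benjamini-Hochberg adjustment over 21743 genes. edgeR 4.0.16 and DESeq2 1.42.0 were run on recovered whole reads. The fit was checked on simulated data. The members and lists were chosen with earlier results of these data known. Genes named in the text are the 3 genes, their copies by name, up to 4 genes per list of smallest p and up to 4 of highest mean, and the 5 named genes most alike. Some neighbours of the 3 genes, and mlc1 and fgfbp3, are named too. Tested alternatives were other pseudocounts, filters and scalings, a replicate block, and each library left out. P-values measure the spread between samples that may not be independent fish groups. Sequences of the 3 genes were not used here.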

Additional observations from a re-analysis of the deposited data

How the results depend on the processing

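The log2 differences of gfap, fabp7a and clu kept their direction and moved by less than 1 SD between replicates under all 15 alternatives tried for each. Much of this was fixed in advance. With 3 libraries per status, leaving 1 out cannot move a difference past that limit. It also cannot turn the sign where the groups do not overlap. A replicate block in this balanced design and a filter on other genes leave the difference as it is. Those alternatives are therefore no evidence of stability. Other scalings, pseudocounts, filters and tools gave 0.47 to 0.49 for gfap, 0.56 to 0.59 for fabp7a and 0.26 to 0.28 for clu. The count of genes called in the brain, 6 by limma, was 1 with a replicate block and 88 by DESeq2 (74 higher, 14 lower), and 1 to 15 with one library left out. Deviations of same-numbered libraries correlated weakly (r = 0.09, -0.03 and -0.02 for numbers 1, 2 and 3). Dominant brain 1 correlated best with its own number, and dominant brains 2 and 3 with another number. With 3 libraries per status these values cannot show whether same-numbered males shared a tank, and the labels do not say so. The block left the members' differences as they were. The apolipoprotein and receptor median was -0.072 with a mean of at least 50 reads and -0.089 to 0.059 with one library left out. With one library left out, the radial glia median ran from 0.015 to 0.15, the intermediate filament median from 0.16 to 0.33, the fatty acid binding protein median from 0.029 to 0.36 (0.074 with no filter), the reactive glia median from 0.023 to 0.12 and the glial fate regulator median from -0.027 to 0.024. The within-status correlations turned sign. For gfap and clu r was 0.30 after quantile rescaling. With one library left out it ran from -0.75 to 0.70 for gfap and fabp7a, from -0.78 to 0.65 for gfap and clu, and from -0.71 to 0.75 for fabp7a and clu, none past the threshold, which so few permutations could not reach. The cause of these changes was not tested. Counting error was small against the spread between replicates for gfap and fabp7a, and less so for clu in subordinate brains.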
